A study of Mus musculus with 8 samples.

Results

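Convergent neighbour clusters are neighbouring transcription start clusters that point towards each other: a plus-strand cluster on the left and a minus-strand cluster on the right, 0 to 400 bp apart, with a gene symbol on at least 1 of them. They were found by position, strand and symbol alone in a catalogue of 84475 distinct CAGE clusters from mouse facial skin. The rule gave 1736 pairs, made of 3472 clusters, among 5635 neighbour pairs on opposite strands within the same distance. In 642 pairs both clusters carried symbols and these differed. In the other 1094 pairs, 1 cluster had a symbol and its partner had none. There were 0 pairs with the same symbol on both clusters. The pairs touched 2012 of the 16094 symbols in the catalogue (12.5%).

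CAGE sequences the capped 5′ ends of RNA, so a cluster marks a place where transcripts begin. The series holds 8 samples of facial skin from C57BL/6 mice at postnatal day 28. The 4 lesional samples came from mice labelled Nectin-cre(+);Ikk2FL/FL, in which the floxed gene encodes a kinase of NF-κB signalling, and the 4 non-lesional samples came from mice labelled Control. The text of the series writes the Cre as Nestin-cre, and lesion and genotype changed together. The labels do not give the genotype of the controls beyond that word. The 8 columns of values carry names that match no sample label, so they were not used. No level, depth or difference between lesional and control skin is reported, and the catalogue does not show which mice a cluster came from. For the same reason, a pair states that both strands have a start there, and not that both were used in the same cells or the same skin.

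As background, RNA polymerase often starts in both directions at an active promoter. Where the starts point away from each other the pair is called divergent, and a shared promoter between neighbouring genes is a common case. Convergent starts face each other instead, so that transcripts from both overlap as antisense RNA. Antisense starts just inside a gene, facing its own promoter, are known from many mammalian promoters, and so are long non-coding RNAs that begin within a coding gene and run back through its start. Colliding polymerases and antisense RNA can each affect transcription of the gene, but start positions alone do not show either.

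The promoters of 6 genes in such pairs are shown because each gene's start faces another start. They were picked after the values were seen. Each is the RefSeq window of assembly GRCm38.p6 that runs from 250 bases before the gene's annotated start to 50 bases after it, 5′ to 3′ on the gene's own strand. Capitals mark the dinucleotide CG, the site of DNA methylation that is frequent in housekeeping promoters. The coordinates beside these sequences are those of GRCm38.p6, whereas all cluster positions in the text are on mm9.
Carf, chr1:60097997-60098296, plus strand: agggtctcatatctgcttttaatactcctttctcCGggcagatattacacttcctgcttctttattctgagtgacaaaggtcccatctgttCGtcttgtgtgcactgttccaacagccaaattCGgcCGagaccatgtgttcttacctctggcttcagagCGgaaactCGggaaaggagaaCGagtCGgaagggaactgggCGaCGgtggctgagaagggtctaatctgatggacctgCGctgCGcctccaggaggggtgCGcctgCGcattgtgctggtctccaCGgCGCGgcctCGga
Wdr12, chr1:60098451-60098750, minus strand: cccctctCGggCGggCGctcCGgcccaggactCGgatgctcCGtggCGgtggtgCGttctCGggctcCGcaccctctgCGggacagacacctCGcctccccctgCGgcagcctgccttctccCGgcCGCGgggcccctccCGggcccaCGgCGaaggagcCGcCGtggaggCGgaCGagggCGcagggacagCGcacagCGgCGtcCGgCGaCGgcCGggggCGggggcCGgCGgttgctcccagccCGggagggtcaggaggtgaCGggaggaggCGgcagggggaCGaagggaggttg
Ripk1, chr13:34002113-34002412, plus strand: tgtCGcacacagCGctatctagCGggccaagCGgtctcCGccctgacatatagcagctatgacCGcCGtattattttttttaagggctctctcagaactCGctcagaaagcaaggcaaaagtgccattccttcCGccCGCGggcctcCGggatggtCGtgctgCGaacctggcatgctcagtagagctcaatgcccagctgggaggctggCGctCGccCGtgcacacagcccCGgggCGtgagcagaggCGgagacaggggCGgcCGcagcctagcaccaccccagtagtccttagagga
Serpinb6a, chr13:34002745-34003044, minus strand: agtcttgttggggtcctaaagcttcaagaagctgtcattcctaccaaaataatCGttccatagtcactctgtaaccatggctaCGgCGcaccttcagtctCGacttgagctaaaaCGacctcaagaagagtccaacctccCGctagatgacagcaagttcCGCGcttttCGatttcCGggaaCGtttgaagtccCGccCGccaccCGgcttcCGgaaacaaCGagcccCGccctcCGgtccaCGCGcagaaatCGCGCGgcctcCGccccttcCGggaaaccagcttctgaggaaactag
Hbs1l, chr10:21295729-21296028, plus strand: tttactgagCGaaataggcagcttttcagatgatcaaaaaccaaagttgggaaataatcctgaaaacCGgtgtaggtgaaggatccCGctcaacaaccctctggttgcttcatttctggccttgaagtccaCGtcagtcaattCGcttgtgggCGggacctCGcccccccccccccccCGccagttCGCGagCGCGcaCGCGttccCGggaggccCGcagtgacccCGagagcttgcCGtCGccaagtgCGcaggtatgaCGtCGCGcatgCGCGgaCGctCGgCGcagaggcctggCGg
Fadd, chr7:144582392-144582691, minus strand: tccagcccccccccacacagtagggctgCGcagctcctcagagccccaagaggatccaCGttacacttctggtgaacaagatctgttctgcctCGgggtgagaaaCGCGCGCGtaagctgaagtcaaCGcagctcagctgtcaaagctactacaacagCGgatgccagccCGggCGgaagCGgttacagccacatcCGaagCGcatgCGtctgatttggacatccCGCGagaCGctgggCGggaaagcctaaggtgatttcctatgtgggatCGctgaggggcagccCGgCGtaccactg
Carf encodes a calcium-responsive transcription factor, and Wdr12 a protein of large ribosomal subunit assembly. Their annotated starts face each other 253 bp apart. Ripk1, a kinase of death receptor and NF-κB signalling, and Serpinb6a, a protease inhibitor, have annotated starts 431 bp apart that also face each other. Hbs1l, a GTPase of ribosome rescue, and Fadd, the adaptor of death receptors, face an unnamed cluster. The windows hold between 18 CG in Carf and 38 in Wdr12, at 55.0% to 78.0% G and C.

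Of the 642 pairs with different symbols, 337 (52.5%) joined a pair of protein-coding genes and 180 (28.0%) a protein-coding gene and a long non-coding RNA. A further 106 joined a protein-coding gene and a symbol that matched no RefSeq gene. Long non-coding RNAs made up 14.7% of the 1066 genes in these pairs (157 genes, 95% Wilson interval 12.7% to 17.0%), against 3.75% of all symbols. Protein-coding genes made up 75.4% of them, against 86.3% of all symbols. Shares here and below carry 95% Wilson intervals where one is given; these cover counting error only, and neither pairs nor genes are replicates of a condition.

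The absence of pairs with 1 symbol on both clusters goes with how the symbols lie on the strands. Of the 1507 symbols in pairs for which RefSeq gives a strand, 1505 stood on that strand. Only 11 symbols of the catalogue occurred on both strands. A start antisense to a gene therefore carried either no symbol or that of another gene.

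The widest clusters of pairs with different symbols were compared first. The span of a cluster, its end minus its start, is the width over which its starts spread, and the widest cluster of a gene was taken as its main start region. It is a stand-in for the strongest start, since the values were not used. The 8 pairs whose narrower member was widest follow, on mm9.

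Mbtd1, a chromatin reader of the TIP60 acetyltransferase complex, started at chr11:93746418-93746607 on the plus strand. Its partner Utp18, a factor of small ribosomal subunit assembly, started at chr11:93746962-93747131 on the minus strand. The clusters spanned 189 bp and 169 bp with 355 bp between them, and each was the widest of its gene. Traf3ip2 encodes Act1, the adaptor of interleukin-17 receptors. Its cluster at chr10:39332921-39333115 spanned 194 bp and faced a 127 bp cluster of the long non-coding RNA Gm16365 across 336 bp. N4bp2, a polynucleotide kinase that binds Bcl3, faced 1700022K14Rik across 140 bp, with spans of 175 bp and 126 bp.

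Nt5m, a mitochondrial nucleotidase, and Cops3, a subunit of the COP9 signalosome, faced each other across 222 bp with spans of 126 bp and 166 bp at chr11:59652881-59653395. The ephrin ligand gene Efna4 had a 205 bp cluster, the widest minus-strand member of the 8, that faced 4731419I09Rik across 63 bp. For Carf and Wdr12, whose promoters are printed above, the clusters lay at chr1:60155060-60155180 and chr1:60155268-60155402, 88 bp apart. In these 6 pairs both clusters were the widest of their genes, so the main start regions themselves faced each other.

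The remaining 2 pairs had a plus-strand cluster with more than 1 symbol. Il4i1, an amino acid oxidase of immune cells, and Nup62, a nucleoporin, shared a 204 bp cluster that faced Atf5, a stress-related transcription factor, across 114 bp. Ccr9, a chemokine receptor, and Gm17200 shared a 127 bp cluster that faced the amino acid transporter gene Slc6a20a across 325 bp. Which of the symbols on a shared cluster was transcribed cannot be told from the table.

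**Figure D1:**
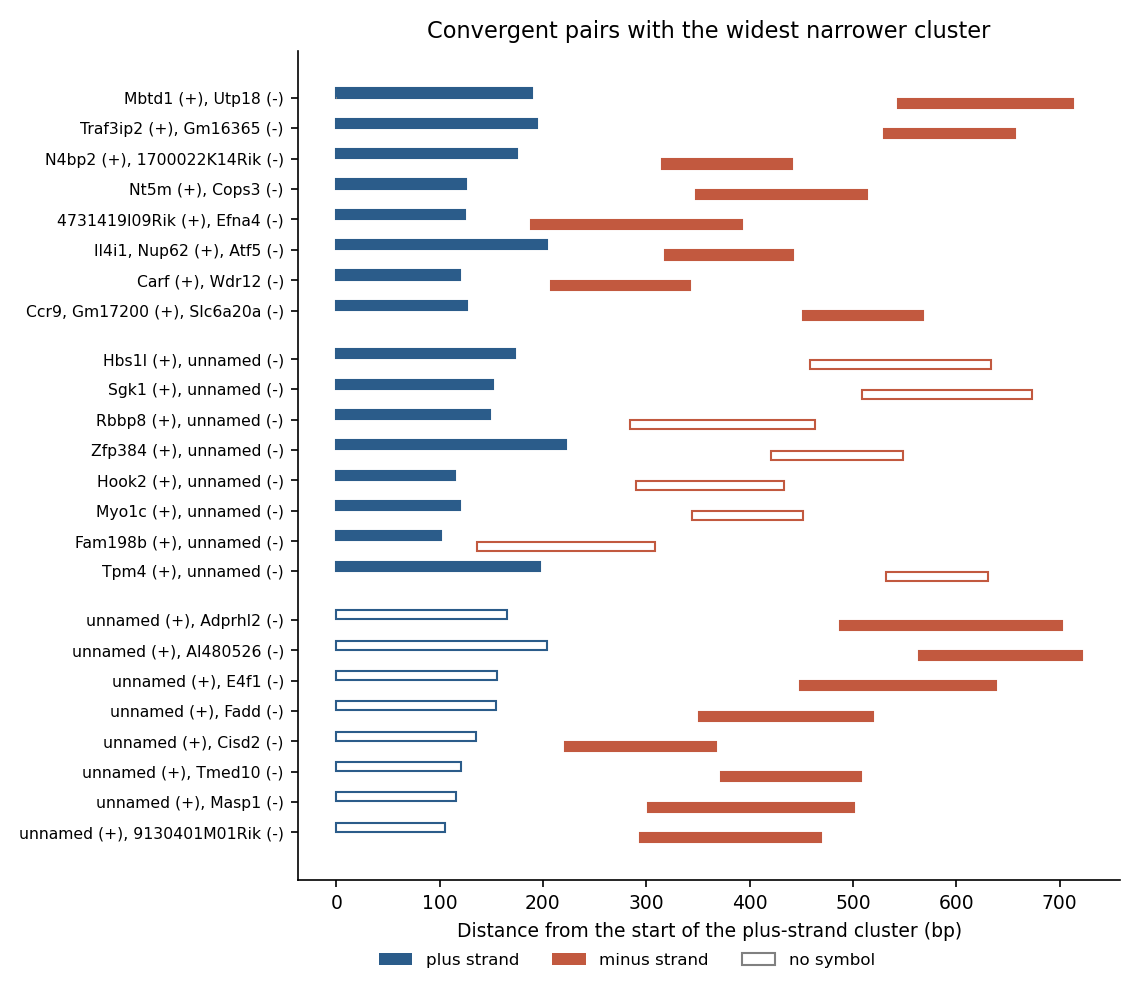
Position of both clusters in the 24 pairs with the widest narrower member, 8 per class, drawn to scale. The x axis gives the distance in bp from the start of the plus-strand cluster; blue bars are plus-strand and red bars minus-strand clusters, and open bars have no symbol. In all 24 pairs the blue bar ends before the red bar starts, by 35 bp in Fam198b to 360 bp in AI480526.

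Across all pairs with different symbols, the main start regions more often pointed away from each other. Of the 622 pairs with 1 symbol on each cluster, the widest clusters of the genes were convergent in 173 (27.8%, interval 24.4% to 31.5%) and divergent in 449 (72.2%). In 61 of the 173, the paired clusters were themselves the widest of both genes. In 73, only 1 of them was, and in 39 neither was. A divergent pair of widest clusters cannot form a convergent neighbour pair, so in the 449 at least 1 member was another cluster of its gene. In 202 of these 1 member was the widest, and in 247 neither was.

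The arrangements differed in the kinds of genes. Both genes were protein-coding in 49 of 173 convergent arrangements (28.3%, interval 22.1% to 35.5%) and in 282 of 449 divergent ones (62.8%, interval 58.2% to 67.2%). A protein-coding gene and a long non-coding RNA made up 42.2% of the convergent arrangements (73 pairs) and 22.9% of the divergent ones (103 pairs). These intervals count each pair as separate, although the 642 pairs with different symbols came from 527 combinations of genes. Arrangement and kinds of genes are the same for all pairs of a combination, so the intervals may be too narrow. The difference was not tested. Midpoints of the widest clusters lay a median of 383 bp apart where they were convergent and 267 bp where they were divergent.

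Among pairs of protein-coding genes, 55 had clusters of at least 50 bp on both strands. The widest clusters of the genes were convergent in 14 of the 55 and divergent in 39, and 2 had a cluster with several symbols. The median distance between the paired clusters was 145 bp. The 14 included Ripk1 and Serpinb6a, at chr13:34094221-34094325 and chr13:34094620-34094702, with spans of 104 bp and 82 bp and 295 bp between them. They also included Tecpr2, an autophagy gene, with Cinp, and Pih1d1 with Aldh16a1. Mrrf, the mitochondrial ribosome recycling factor, faced the RNA-binding protein gene Rbm18 across 60 bp. Vps16, a subunit of endosomal tethering complexes, faced Fam113a across 292 bp.

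In the 39 divergent cases the paired clusters were not the main start regions of both genes. Gabpa, an ETS transcription factor, and Atp5j, an ATP synthase subunit, had widest clusters at a signed midpoint distance of -443.5 bp, where a negative value means that they point away from each other. Their clusters of 86 bp and 107 bp nevertheless formed a convergent pair, 155 bp apart, and the former was the widest of Gabpa. Rmi1, of the Bloom helicase complex, and Hnrnpk, an RNA-binding protein, had -139 bp, with paired spans of 63 bp and 86 bp.

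Beside Ripk1 and Traf3ip2, whose widest clusters were convergent, Irak3 and Sqstm1 stood in pairs of the divergent arrangement. Irak3, an inhibitory kinase-like protein of interleukin-1 receptor signalling, was paired with Tmbim4 across 40 bp, and neither cluster was the widest of its gene. Sqstm1, the autophagy receptor p62, was paired through its 187 bp widest cluster with a 63 bp cluster of Mgat4b, and the widest clusters of both genes lay at a signed distance of -14614 bp. Irak3 and Sqstm1 were picked from these pairs for their known roles, after the values were seen, and belong to no list.

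**Figure D2:**
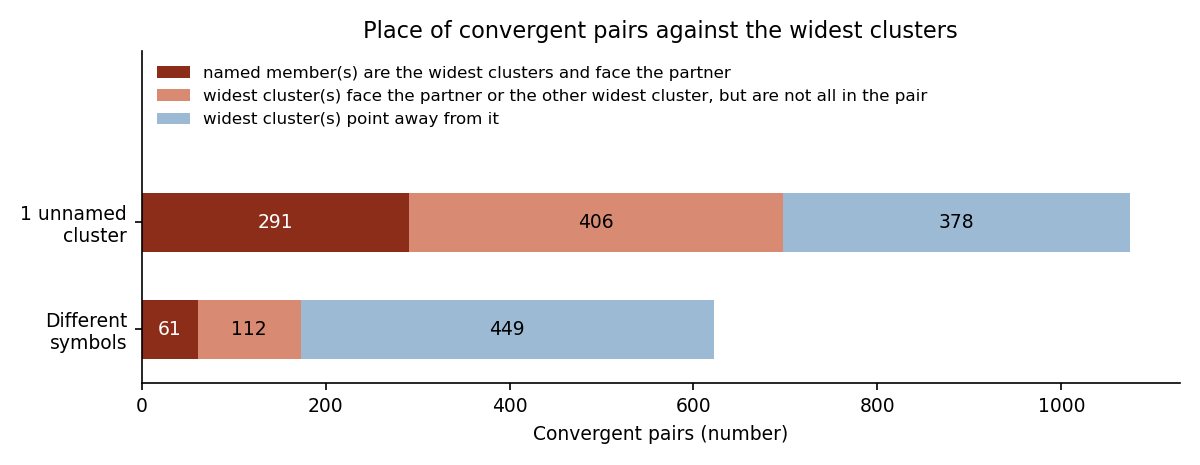
Number of convergent pairs by the place of the genes' widest clusters, for 1075 pairs with 1 unnamed cluster and 622 pairs with different symbols. Dark red counts pairs whose named members are the widest clusters of their genes (291 and 61), light red counts pairs in which the widest clusters face the partner or each other without all being in the pair (406 and 112), and blue counts pairs in which they point away (378 and 449).

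The same genes could be paired several times. The 642 pairs came from 527 combinations of genes, of which 89 gave at least 2 pairs and 20 at least 3. Gm11410 and Gm11408 gave 6 pairs. Both symbols match no RefSeq gene, and sharing of reads between near-identical copies was not tested. Lpp, an adhesion and signalling protein, and the long non-coding RNA 1110054M08Rik gave 5. Gm11602 and Ino80d, a subunit of a chromatin remodeller, gave 4.

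The chaperonin genes Hspe1 and Hspd1, which share a bidirectional promoter, gave 3 pairs from 8 and 7 clusters. Their paired clusters lay 43 bp, 16 bp and 3 bp apart. The first was made of 34 bp and 62 bp clusters and the other two of clusters of 2 to 4 bp. Their widest clusters were divergent at -444 bp, so none of the 3 pairs held the main start regions of both genes. Prdx2 with Rnaseh2a, Eif1ad with Banf1, and Gabpa with Atp5j gave 3 pairs each in the same arrangement. Tor1aip2 and Tor1aip1, which encode proteins of the nuclear envelope, also gave 3, but with widest clusters that were convergent at 250.5 bp. Wnt5a, a Wnt ligand with 30 clusters, gave 3 pairs with Gm2670.

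RefSeq starts were compared with the arrangement, within GRCm38.p6 only. A gene can have more than 1 annotated start, so a combination of genes can have facing starts, diverging starts or both within 1000 bp. Of the 173 convergent arrangements, 37 had facing starts only, 15 had both kinds and 17 had diverging starts only. In 11 the starts were over 1000 bp apart, and for 93 the promoter table held no start for both genes. Of the 449 divergent arrangements, 169 had diverging starts only, 54 had facing starts only, 37 had both and 24 were over 1000 bp apart, with 165 not in the table. Where the table held both genes, facing starts were more frequent than diverging ones in the first group and less frequent in the second.

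In 23 facing pairs made of both widest clusters, the distance between cluster midpoints could be set beside the distance between annotated starts. Only annotated starts that face each other within 1000 bp were used. Where a pair had several such combinations, the one nearest to the cluster distance was taken. The difference is thus the smallest available for each pair, and its size is not a test of agreement. It had a median of 76.5 bp and was at most 100 bp in 13 of the 23. For Carf and Wdr12 the clusters lay 215 bp apart and the annotated starts 253 bp. For Ripk1 and Serpinb6a the values were 388 bp and 431 bp, and for Topors, a ubiquitin and SUMO ligase, with 2010003O02Rik they were 260 bp and 262 bp. The largest difference was 733.5 bp, for Ptpn3 and Gm12536.

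Pairs with 1 unnamed cluster held a start of a gene and an opposite start that had been given no symbol. They touched 972 genes, of which 93.7% were protein-coding, above the 86.3% of all symbols, and 1.44% were long non-coding RNAs. The named cluster was on the plus strand in 537 of the 1094 pairs (49.1%, interval 46.1% to 52.0%), so the strands were held about equally. Only 26 genes stood in pairs of both classes.

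The named member was the wider somewhat more often than its unnamed partner. Named members spanned a median of 15 bp (quartiles 3 and 77 bp) and their unnamed partners 11 bp (3 and 49 bp). The named cluster was the wider in 52.0% of pairs, the unnamed cluster in 42.6%, and 5.39% were equal. Unnamed clusters in these pairs were wider than unnamed clusters in general, whose median span was 3 bp. At least 10 bp was spanned by 52.8% of them (interval 49.9% to 55.8%), by 55.4% of those in divergent pairs with a gene, and by 27.0% of all 38099 unnamed clusters. Span can also move with the number of tags in a cluster, which was not tested. By contrast, the named member of a divergent pair spanned a median of 77 bp.

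Among the 8 widest pairs with the gene on the plus strand, Hbs1l had a 173 bp cluster at chr10:21015724-21015897, which faced an unnamed cluster of 176 bp at chr10:21016182-21016358. The 285 bp between them lie downstream of the Hbs1l start. Sgk1, a kinase induced by glucocorticoids, had a 152 bp cluster facing an unnamed cluster of 164 bp across 357 bp. Zfp384, a zinc finger protein, had 222 bp facing 127 bp across 199 bp. Hook2, a linker of organelles to microtubules, had 115 bp facing 143 bp across 175 bp, and Tpm4, a tropomyosin, had 197 bp facing 99 bp across 335 bp.

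In these 5 pairs the named cluster was the widest of its gene, so the unnamed start lay downstream of the main start and antisense to the transcript. The midpoint distance ran from 304 bp in Hook2 to 515 bp in Sgk1. The other 3 of the 8 were placed differently. The pair of Rbbp8, a DNA end resection factor, lay 24389 bp downstream of that gene's widest cluster, and that of Myo1c, an unconventional myosin, 1322 bp downstream. The unnamed cluster of Fam198b lay at -84 bp, upstream of the widest cluster.

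With the gene on the minus strand, all 8 of the widest pairs held the gene's widest cluster. Adprhl2, an ADP-ribose hydrolase, had a 215 bp cluster facing an unnamed cluster of 165 bp across 322 bp. Fadd had a single cluster in the catalogue, at chr7:151768281-151768449, which spanned 168 bp and faced an unnamed cluster of 155 bp at chr7:151767930-151768085. Their midpoints were 357.5 bp apart. E4f1, a transcription factor with ubiquitin ligase activity, had 189 bp facing 156 bp across 293 bp.

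The other 5 were AI480526, Cisd2, Tmed10, Masp1 and 9130401M01Rik. Cisd2, an iron-sulfur protein of the endoplasmic reticulum and mitochondria, had the closest partner of the 8, at 86 bp. Tmed10, a cargo receptor of the early secretory pathway, had its partner at 251 bp. Masp1, a protease of the complement lectin pathway, had a 199 bp cluster and an unnamed partner of 116 bp at 186 bp. AI480526 had the widest unnamed partner of the 16, at 204 bp.

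The pairs were then placed against the gene's widest cluster. Of 1075 pairs that could be placed, 291 (27.1%, interval 24.5% to 29.8%) held the widest cluster itself, facing the unnamed start. In 399 (37.1%, interval 34.3% to 40.0%), another cluster of the gene and its unnamed partner both lay downstream of the widest. In 378 (35.2%, interval 32.4% to 38.1%) the unnamed start lay upstream of the widest cluster, and in the last 7 the midpoint of the widest cluster lay between those of the paired clusters. The unnamed start was downstream of the widest cluster in 697 in all (64.8%, interval 61.9% to 67.6%).

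The 291 pairs at the main start were less often close together than the other placed pairs. Their distance had a median of 191 bp (quartiles 126 and 273.5 bp), and the unnamed midpoint lay a median of 255 bp into the gene. The distance was under 50 bp in 8.25% of them (interval 5.6% to 12.0%) and in 21.7% of the other 784 placed pairs (18.9% to 24.7%). It was 125 to 274 bp in 50.5% against 39.4%. Cluster width was not matched between these sets. With clusters of at least 10 bp only, all pairs with 1 unnamed cluster had a median distance of 181 bp. In the 291 pairs, the named cluster spanned a median of 116 bp and the unnamed one 13 bp, and the named one was the wider in 90.7%. That excess follows in part from the choice of the widest cluster. For 101 of the 291, the cluster was the only one of its gene. Only 294 of 15804 widest clusters (1.86%) stood in a pair with an unnamed partner at all.

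In the downstream pairs the named cluster was by definition not the one taken as the widest of its gene. It spanned a median of 4 bp and at most 150 bp, and span does not show how strongly a start was used. The unnamed start lay a median of 562 bp from the widest cluster, within 1000 bp in 83.0% of these pairs. In the upstream pairs the unnamed start lay a median of 163 bp before the widest cluster and the named cluster spanned a median of 7 bp. These unnamed starts were divergent from the widest cluster and convergent with another cluster of the same gene that lay more upstream.

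**Figure D3:**
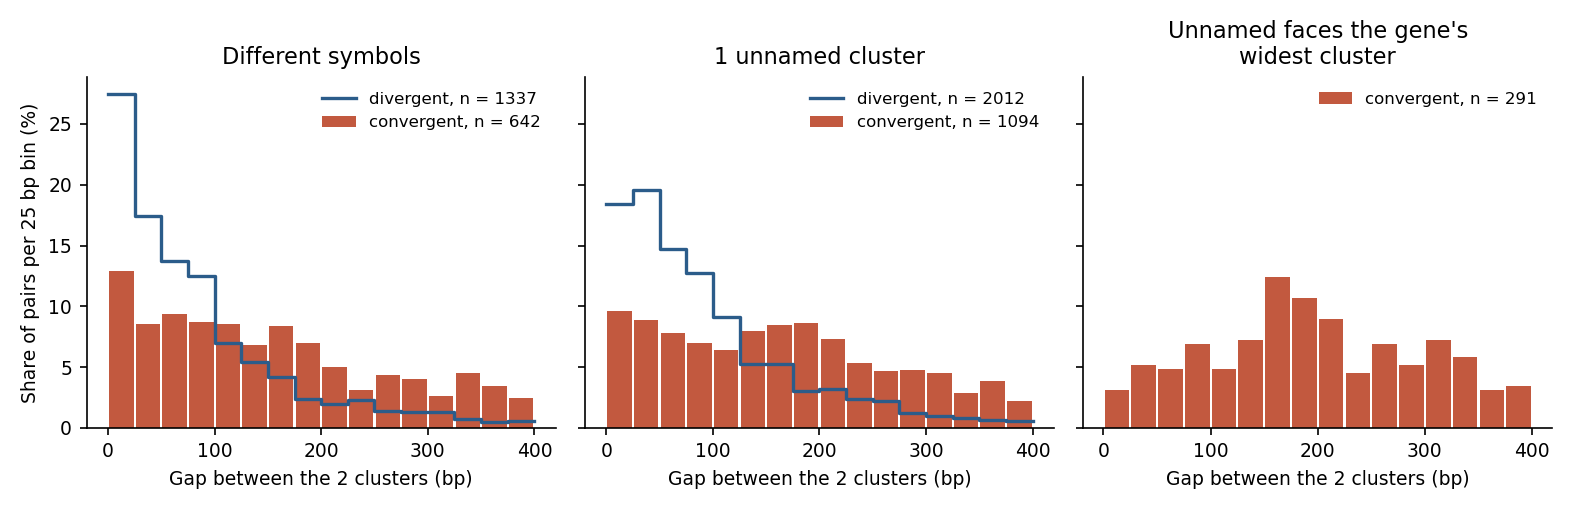
Share of pairs (%) per 25 bp of distance between the clusters of a pair (bp), for pairs with different symbols, pairs with 1 unnamed cluster, and the 291 pairs in which the unnamed cluster faces the gene's widest cluster. Red bars are convergent pairs and blue lines divergent pairs with a gene; the blue lines fall steeply after 100 bp, whereas the red bars extend to 400 bp.

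Convergent pairs were set beside divergent pairs with a gene, in which the minus-strand cluster lies on the left. There were 3349 of these, and convergent pairs made up 34.1% of both kinds together (interval 32.8% to 35.5%). The share was 32.4% with different symbols and 35.2% with 1 unnamed cluster. Neighbours without any symbol, which are outside the rule, gave 36.2% (199 of 550 pairs, interval 32.3% to 40.3%). Divergent pairs outnumbered convergent ones in each class.

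The distance between clusters differed more than the counts. With different symbols the median was 133 bp in convergent pairs (quartiles 57.5 and 222 bp) and 58 bp in divergent pairs (22 and 111 bp). With 1 unnamed cluster it was 157 bp (70 and 235.75 bp) and 70 bp (33 and 126 bp). Distances under 100 bp were found in 39.6% of convergent pairs with different symbols (interval 35.9% to 43.4%) and 71.1% of divergent ones (68.6% to 73.4%). Distances of 250 to 400 bp made up 21.5% and 5.76%. With 1 unnamed cluster the same shares were 33.2% and 65.5% under 100 bp, and 22.8% and 6.36% at 250 to 400 bp. The convergent distances reached up to the limit of 400 bp. With a limit of 1000 bp, 759 pairs with different symbols and 1480 with 1 unnamed cluster were found.

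**Figure D4:**
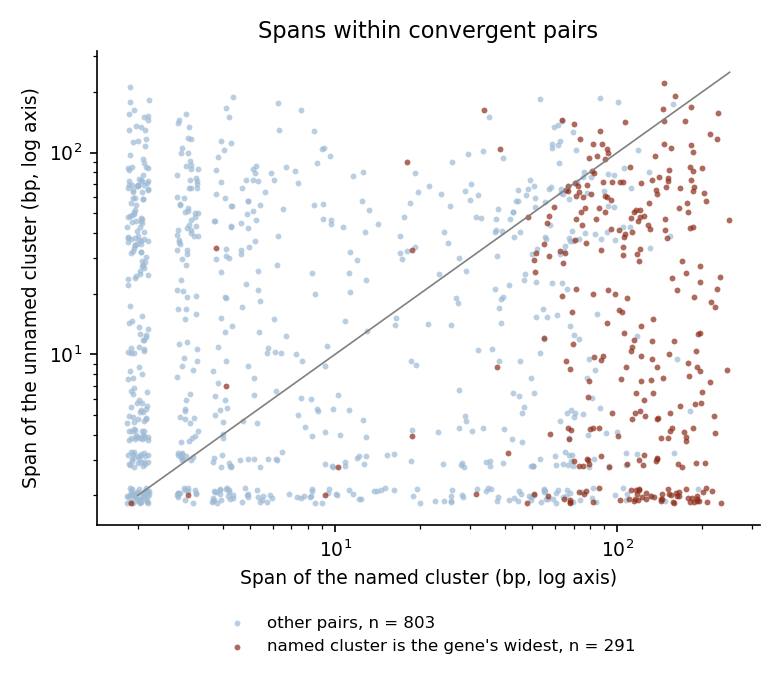
Span of the named cluster (x axis, bp) against that of its unnamed partner (y axis, bp) in the 1094 pairs with 1 unnamed cluster; both axes are logarithmic, points are shifted slightly at random to part equal values, and the grey line marks equal spans. Dark points, 291 pairs whose named cluster is the widest of its gene, lie mostly right of the line, and the 803 other pairs lie on both sides.

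All clusters on the opposite strand were then mapped around the 15804 widest clusters, whether or not they were nearest neighbours. Within 1000 bp, 2090 unnamed opposite clusters lay upstream and 1087 downstream (34.2%, interval 32.6% to 35.9%). The upstream ones were most frequent at -150 to -100 bp, with 441 clusters. Downstream, only 42 lay within the first 100 bp, and the highest count was 98 clusters at 200 to 250 bp. Between 200 and 500 bp, a longer stretch, there were 465, at 68 to 98 per 50 bp bin. The bins at 0 to 50 and 50 to 100 bp held 12 and 30. Beyond 500 bp the counts fell slowly, with 73 at 500 to 550 bp and 57 at 650 to 700 bp.

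Opposite clusters with a symbol showed the same order, with 5442 upstream and 1551 downstream (22.2%). They also peaked at -150 to -100 bp (831 clusters) and, downstream, at 200 to 250 bp (144 clusters), with 140 in the first 100 bp. Per 50 bp bin, a facing start without a symbol was therefore less frequent in the first 100 bp than from 200 to 500 bp. No sharp fall followed at 500 bp. For clusters with a symbol the contrast was smaller. There were 678 between 200 and 500 bp, at 103 to 144 per bin. The bins at 0 to 50 and 50 to 100 bp held 64 and 76. Distances were taken from the midpoint of the widest cluster, so the first bins can lie within that cluster. These numbers count pairs of clusters, so a cluster near more than 1 widest cluster enters more than once.

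**Figure D5:**
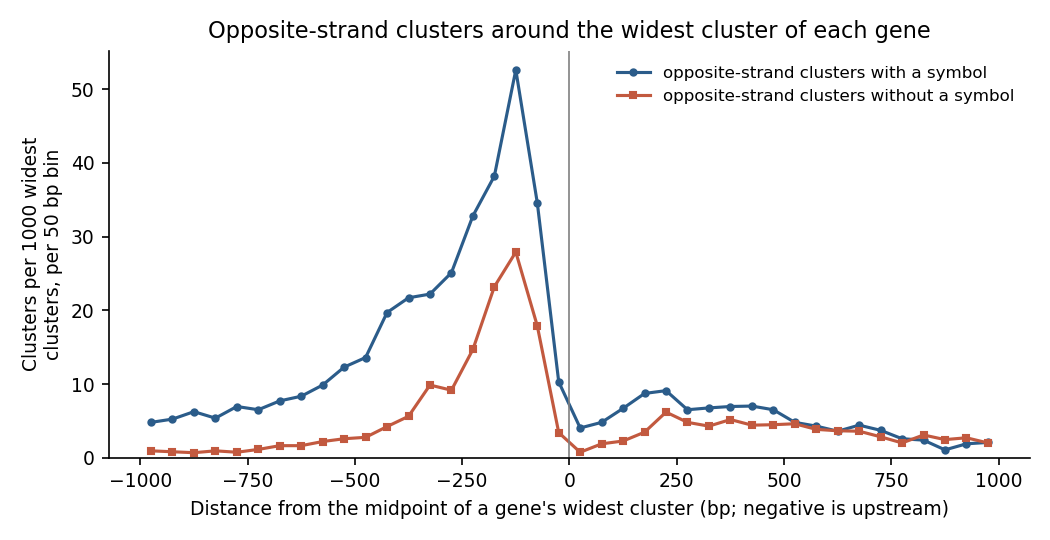
Clusters on the opposite strand around the 15804 distinct widest clusters of genes, per 1000 widest clusters and 50 bp bin. The x axis is the distance in bp from the midpoint of the widest cluster, negative upstream. Both lines peak at -150 to -100 bp, dip just after 0 and reach a lower maximum at 200 to 250 bp.

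Genes in pairs tended to have many clusters. The median number of clusters was 5 for genes in pairs with 1 unnamed cluster, 3 for genes in pairs with different symbols and 1 for genes in no pair. The share of genes in a pair was 4.08% of genes with 1 cluster, 15.4% with 2 to 4, 24.4% with 5 to 9 and 37.2% with 10 or more. A gene with more clusters has more chances to be in a pair.

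Some genes held many pairs. Among the 972 genes with an unnamed partner, 862 had 1 pair, 110 had at least 2 and 18 at least 3. Gm10222, a pseudogene on chromosome 1 with 20 clusters, had 11 pairs, 3 to 171 bp apart. Gm10800 and Gm10801, which match no RefSeq gene and lie close together on chromosome 2, had 4 each. Whether reads of near-identical copies were shared between places was not tested for any gene, so these 3 are uncertain. The same limit applies to Gm11410 and Gm11408, and to Gm-named genes close together on chromosome 9, such as Gm10720 and Gm10722.

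Protein-coding genes with 4 pairs were Scaf8, which binds the tail of RNA polymerase II, and Suv420h1, a histone methyltransferase. In Scaf8 a 63 bp cluster, its widest, faced a 68 bp unnamed cluster across 6 bp. Its other pairs were 38, 50 and 114 bp apart. Ccnl1, a cyclin of splicing kinases, had 3 pairs, and in 1 of them its 200 bp widest cluster faced an unnamed cluster of 2 bp across 321 bp. Cltb, a clathrin light chain, had 3.

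Gene lists that fit skin and NF-κB signalling were looked up by name. Over all 11 lists, 44 of 235 genes with a cluster stood in a pair (18.7%), beside 12.5% of all genes. List genes had a median of 5 clusters, against 2 for all genes. None of the 48 list genes with 1 cluster stood in a pair, beside 4.08% of all such genes, and at 2 to 4 clusters the share was 9.68% of list genes (6 of 62) and 15.4% of all genes. At 5 to 9 clusters it was 25.4% of list genes and 24.4% of all genes, and at 10 or more clusters it was 35.5% and 37.2%.

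Of 18 NF-κB pathway genes with a cluster, 2 stood in a pair (11.1%), beside 12.5% of all genes. Rela, the p65 subunit, had a 79 bp cluster, its widest, at chr19:5637463-5637542, which faced a 2 bp unnamed cluster across 135 bp. Nfkbiz, a nuclear regulator of NF-κB target genes, had a 65 bp cluster whose unnamed partner of 2 bp lay at -201 bp from the widest. Ikbkb, the gene floxed in the lesional mice, had 3 clusters and stood in no pair. Nes, which encodes nestin, had 1 cluster and also stood in none.

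Of 20 immediate early genes, which are induced within minutes of a stimulus, 6 stood in a pair (30.0%), beside 12.5% of all genes. They were Jun, Jund, Egr2, Egr3, Zfp36 and Klf4. Klf4, a transcription factor of epidermal differentiation, had 2 pairs, both upstream of its widest cluster at -504 bp and -804.5 bp. The unnamed members spanned 49 bp and 34 bp. Jund faced Gm11175 across 174 bp. Egr3 had a 53 bp cluster facing an unnamed 14 bp cluster across 312 bp, downstream of its widest.

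Of 25 epidermal keratin and cornified layer genes, 6 stood in a pair (24.0%), beside 12.5% of all genes. They were Krt1, Krt14, Krt15, Krt17, Krt80 and Dsg1a. In Krt15, a keratin of basal and bulge cells, the 126 bp widest cluster faced a 2 bp unnamed cluster across 30 bp. The basal keratin gene Krt14 had 28 clusters and 1 pair, made of clusters of 2 bp and 4 bp. Krt1, a suprabasal keratin, had 2 pairs, both with members of 2 or 3 bp. Krt80 faced the microRNA gene Mir1941 across 7 bp, with 3 bp on each side. Of 20 hair keratin and inner root sheath genes, Krt25 and Krt28 stood in a pair.

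Of 20 collagen genes 4 stood in a pair (20.0%: Col3a1, Col4a2, Col15a1 and Col16a1), of 20 ribosomal protein genes 3 (15.0%: Rplp2, Rpl8 and Rps14), and of 23 skeletal muscle genes 2 (8.7%: Tnni2 and Tpm2), beside 12.5% of all genes. In Rps14 a 143 bp unnamed cluster and in Rplp2 a 75 bp one lay upstream of the widest cluster, at -108.5 bp and -68.5 bp. None of the 23 imprinted genes with a cluster stood in a pair, beside the same 12.5% of all genes.

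Of 16 heat shock and chaperone genes 7 stood in a pair (43.8%), beside 12.5% of all genes. Among the 7, Hspd1 and Hspe1 stood in the same pairs, and Tcp1, a chaperonin subunit, stood with Mrpl18. The 171 bp Tcp1 cluster lay 261 bp from the 35 bp Mrpl18 cluster. Of 25 RNA-binding and splicing genes 8 stood in a pair (32.0%), beside the same 12.5%. Srsf2, a splicing factor, and Mfsd11 gave 2 pairs, and their widest clusters were convergent at 411.5 bp. Rbm3, a cold-inducible protein on chromosome X, had a 137 bp cluster facing 2900002K06Rik across 281 bp.

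Of 25 homeobox and developmental genes with a cluster, 4 stood in a pair (16.0%, beside 12.5% of all genes): Hoxd8, Dlx2, Dlx4 and Tbx3. The 77 bp widest cluster of Hoxd8 faced a 2 bp unnamed cluster across 260 bp. Dlx4, a homeobox gene of facial development, gave 2 pairs with A730090H04Rik, and Tbx3, a T-box factor, faced Gm2301 across 320 bp with 97 bp against 2 bp. The counts of these lists rest on 16 to 25 genes each and are given without a test.

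Markers of 9 cell types, skeletal muscle among them, were looked up in the catalogue. Of these 28 markers, 26 had a cluster, including all 5 keratinocyte and all 5 fibroblast markers. No levels were used and no markers of other tissues were looked up, so this does not test the tissue label. The macrophage marker Adgre1 and the T cell marker Trbc2 had none under those symbols. Of the 26 markers with a cluster, Krt14, Krt1 and Col3a1 were the 3 in a convergent pair, beside 12.5% of all genes. In bulk skin, a start in few cells and a weakly used start in many cells cannot be told apart.

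The base composition of promoters was described for the genes at whose widest cluster the strands face. Every annotated promoter of a gene was taken, and none was matched to a cluster. The RefSeq table held 293 promoters for 223 of 285 such genes with an unnamed partner. They had a median of 21 CG per 300 bases and 60.7% G and C, beside 19 CG and 60.3% for 14616 promoters of genes with a cluster. Promoters of genes with different symbols and convergent widest clusters had 20 CG and 60.3%. Those with divergent widest clusters had 25 CG and 64.7%, with 754 promoters.

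Short motifs were counted on both strands of the same windows. TATAAA, the TATA box core, occurred in 7.17% of promoters of genes whose widest cluster faced an unnamed one. It occurred in 8.58% of promoters of genes with a cluster. CCAAT occurred in 34.5% against 37.2%, and GGGCGG, a core of the GC box, in 60.8% against 59.7%. With different symbols and convergent widest clusters, TATAAA occurred in 5.41%, CCAAT in 27.8% and GGGCGG in 62.5% of 259 promoters. With divergent widest clusters the shares were 4.91%, 33.7% and 67.1% of 754. In all 32851 promoters of the table, TATAAA occurred in 13.6%, CCAAT in 37.4% and GGGCGG in 35.7%. A match is a description of the letters and not of a bound site.

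Pairs were spread over the chromosomes. Autosomes held 16.2 pairs per 1000 clusters on chromosome 6 to 25.5 on chromosome 7. Chromosome X held 8.65, from 19 pairs in 2197 clusters, below every autosome. Chromosome Y had 78 clusters and 0 pairs.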

How the data were processed

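CAGE had been run on facial skin of 8 mice, 4 lesional and 4 non-lesional. Per the submitters' processing notes, reads were aligned with BWA and HISAT2 and the build is mm9; for versions, cluster calling and the assignment of symbols, the method is not given in the sources used here. The deposited table gives, per row, a cluster (chromosome, start, end, strand), a symbol or a dot, and 8 columns of values. Their names match no sample label, so these 8 columns were not used; depth was not analysed here, and the planned tests of lesional against control skin, with their alternatives, were not run. Coordinates are printed as deposited, with the first base counted from 0 or from 1 not given.

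The 85623 rows hold 84475 distinct clusters, which were sorted by chromosome and start. Overlapping neighbours (947) were left out, and a cluster could have several symbols. For placement, 622 pairs with different symbols and 1075 with 1 unnamed cluster had a single symbol per cluster in 1 place. Symbols were matched to RefSeq (GRCm38.p6) by name only: 1884 of the 2012 in pairs matched. Named genes are the 8 pairs per class with the widest narrower cluster, protein-coding pairs with both clusters at least 50 bp wide, the genes with most pairs, Ikbkb, Nes and members of 11 lists. Other genes were chosen after their values were seen. Members and lists were chosen with earlier results of these data known. Tested on simulated data, the pair finding recovered 1631 of 1631 placed pairs. These were convergent and divergent pairs far from each other, each with 1 named and 1 unnamed cluster. The test covers only whether the rule was coded as stated, and not crowded clusters or the other classes. Python 3.11.15, pandas 2.3.3, numpy 2.4.6, scipy 1.17.1 and matplotlib 3.10.9 were used.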

Additional observations from a re-analysis of the deposited data

How the results depend on the processing

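Over 10 results and 38 alternatives, 19 values stayed within the set margin (1.5 times for counts, the interval for shares) and 19 moved; 11 of the alternatives were chosen after seeing the data. Pairs with the same symbol on both clusters stayed at 0 in all 6 alternatives run. Only 11 symbols occurred on both strands, so this count could hardly move. These 6 are among the 19 that stayed and say little about stability. With clusters of at least 10 bp only, there were 380 pairs with different symbols, with a median distance of 152 bp, and 500 with 1 unnamed cluster, at 181 bp; convergent pairs made up 28.8% of opposite-strand pairs with a gene, the named cluster was the wider in 64.8%, and 71.1% of unnamed clusters lay downstream of the gene's widest. With clusters of at least 5 bp only, 646 pairs with 1 unnamed cluster were found. In both width settings narrower clusters were dropped first and neighbours found again, so pairs across a dropped cluster can be included. A limit of 200 bp gave 711 such pairs, median distances of 87 bp (different symbols) and 96 bp (1 unnamed), a convergent share of 28.1% and 60.1% of unnamed clusters downstream. A limit of 1000 bp gave 160 bp, 208 bp, 38.9% and 69.4%. With the most upstream cluster of a gene in place of its widest, 100% of widest clusters were convergent and 100% of unnamed clusters were downstream, by construction, so these placements rest on taking the widest cluster as the main one. No paired analysis was possible because no column of values carries the label of a sample; for the same reason, depth limits could not be given and the alternatives for scaling, filters, tools and left-out replicates were not run.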
